A study of Mus musculus with 10 samples.

Results

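Fos, Fosb, Fosl2, Jun, Junb, Jund, Atf3, Egr1, Myc and Nr4a1 are 10 transcription factor genes of the AP-1 and immediate early class, chosen by symbol from the deposited expression tables of a study of Prdm16 in the mouse heart. All 10 were found among 46977 genes at 12 months and among 46786 genes at 3 months. Prdm16 encodes a zinc-finger transcriptional regulator. Whole hearts from Prdm16 knockout and control mice were dissected at 12 months (2 knockout and 2 control libraries) and at 3 months (3 knockout and 3 control libraries), and RNA was sequenced. The knockout allele, any Cre driver, the strain, the sex and the genotype of the controls are absent from the labels used here. Expression is in FPKM (a fragment count corrected for transcript length and library size), with a separate table for each age. The labels do not say whether each library is its own animal, and p-values therefore cover variation among libraries that may be technical.

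FOS and JUN proteins carry a basic leucine zipper and pair with each other to form AP-1, which binds short palindromic DNA elements. Many of these genes are immediate early genes: they are transcribed within minutes of a stimulus, through kinases and factors already present in the cell, and their transcripts decay quickly. In the heart they are known to be induced by stretch, adrenergic stimulation, ischaemia and the handling of tissue. Egr1 and Nr4a1 encode a zinc-finger factor and an orphan nuclear receptor of the same early response, Atf3 a stress-induced basic leucine zipper factor, and Myc a basic helix-loop-helix factor that pairs with MAX.

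The promoters of the 4 members with the largest differences at 12 months by estimate (Nr4a1, Atf3, Fos and Jun) are shown. Some of the elements that serve immediate early induction lie close to the start site, and others lie farther away. Each line gives the 250 bases upstream of the RefSeq start (GRCm38.p6), read on the strand of the gene. The windows are chr15:101266596-101266845 (plus strand) for Nr4a1, chr1:191183334-191183583 (minus strand) for Atf3, chr12:85473640-85473889 (plus strand) for Fos and chr4:95052223-95052472 (minus strand) for Jun. Capitals mark TGACG, the half-site of the cyclic AMP response element, or its complement CGTCA, and in Jun the letters TGACATCA.
Nr4a1: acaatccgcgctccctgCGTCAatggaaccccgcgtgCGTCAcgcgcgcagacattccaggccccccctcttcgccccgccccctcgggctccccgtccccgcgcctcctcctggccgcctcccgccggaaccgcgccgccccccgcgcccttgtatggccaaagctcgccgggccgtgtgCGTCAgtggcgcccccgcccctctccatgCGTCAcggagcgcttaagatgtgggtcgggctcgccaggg
Atf3: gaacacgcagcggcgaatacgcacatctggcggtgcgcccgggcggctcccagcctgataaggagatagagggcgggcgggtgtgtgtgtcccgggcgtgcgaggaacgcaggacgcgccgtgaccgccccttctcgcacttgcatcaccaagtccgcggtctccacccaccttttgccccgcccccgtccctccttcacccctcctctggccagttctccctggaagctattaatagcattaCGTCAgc
Fos: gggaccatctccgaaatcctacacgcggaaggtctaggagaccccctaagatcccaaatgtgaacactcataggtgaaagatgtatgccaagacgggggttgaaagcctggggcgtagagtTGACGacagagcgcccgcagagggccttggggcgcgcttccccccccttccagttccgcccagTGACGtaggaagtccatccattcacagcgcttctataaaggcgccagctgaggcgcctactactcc
Jun: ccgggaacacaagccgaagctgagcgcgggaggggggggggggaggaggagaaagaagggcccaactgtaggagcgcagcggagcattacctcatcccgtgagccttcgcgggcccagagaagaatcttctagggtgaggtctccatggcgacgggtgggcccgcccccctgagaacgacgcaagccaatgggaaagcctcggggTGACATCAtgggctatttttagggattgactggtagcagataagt
Nr4a1 held 4 half-sites, Fos held 2, and Atf3 held 1, at 7 to 3 bases before its start. The Jun letters lay 45 to 38 bases before the start and match TGACNTCA, the AP-1 element with 1 free base. Among 32851 promoter windows of the same length, 17.8% held the half-site and 7.49% held TGACNTCA on either strand. These 2 patterns were added after the sequences had been seen, and TGACNTCA includes the full cyclic AMP response element. Of 8 members whose window was scanned, Fosb and Junb also held 1 half-site each, while Fosl2 and Jund held neither pattern. The Jund window ended 1210 bases from the nearest GENCODE start of that gene, and all 250 bases of the Fosl2 window lay in GENCODE exons. For these 2 genes the window may therefore not be the promoter in use. None of the 8 windows held TGACTCA or TGAGTCA (in 4.46% of all windows), TGACGTCA (1.55%), a CArG box (1.47%), GCGTGGGCG (0.536%) or CACGTG (6.02%). Bases farther upstream were not scanned, nor were Egr1 and Myc, so these elements are not shown to be absent from the genes.

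Cardiomyocyte markers were abundant in every library, with summed levels of 68400 to 70500 FPKM in knockout and 65400 FPKM in control hearts at 12 months, and 36700 to 38200 against 28700 to 35800 FPKM at 3 months. Prdm16 itself was 4.02 and 3.58 FPKM in knockout and 6.31 and 5.05 FPKM in control hearts at 12 months. At 3 months it overlapped, with 1.43, 0.760 and 2.03 FPKM in knockout and 1.44, 2.23 and 1.61 FPKM in control hearts, so the transcript level does not separate the labels at that age. Xist was 0.0911 and 0.0240 FPKM in 12-month knockout hearts and 33.1 and 31.0 FPKM in 12-month controls, while Y-linked Ddx3y was 24.5 and 20.7 FPKM against 0.0352 and 0.0114 FPKM. At 12 months the genotype label and the sex-linked genes thus split the libraries the same way and cannot be told apart. All 6 libraries at 3 months had Ddx3y of 16.5 to 19.9 FPKM. Red blood cell markers were lower in 12-month knockout hearts in 5 of 5 tested genes, with summed levels of 1960 to 2160 against 10600 to 10800 FPKM. At 3 months all 5 were higher in knockout hearts, with 2080 to 3110 against 818 to 1110 FPKM. Fibroblast markers summed to 786 to 887 FPKM in knockout and 1090 to 1100 FPKM in control hearts at 12 months, with a lower knockout mean in 6 of 8 markers. Summed markers were also lower in 12-month knockout hearts for smooth muscle and pericytes (368 to 374 against 463 to 466 FPKM), lymphocytes and neutrophils (4.98 to 24.2 against 26.4 to 27.8 FPKM) and adipocytes (29.5 to 49.6 against 74.5 to 80.3 FPKM). The same held for endothelial markers (349 to 398 against 409 to 413 FPKM) and nerve and glia markers (3.81 to 7.57 against 7.79 to 8.28 FPKM). The atrial list summed higher (13700 to 15900 against 6210 to 6370 FPKM), although 4 of its 7 genes had a lower knockout mean and its median log2 difference was -0.69. At 3 months atrial markers summed to 12300 to 28700 FPKM in knockout and 718 to 6230 FPKM in control hearts, lymphocyte and neutrophil markers to 16.7 to 19.5 and 6.45 to 11 FPKM, and airway markers to 0.151 to 0.319 and 14.3 to 38.7 FPKM. In whole hearts, fewer cells of a type and less RNA per cell cannot be told apart.

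At 12 months the members stood higher in knockout hearts. On log2(FPKM + 1), 9 of 9 tested members had a higher knockout mean, with a median difference of 1.03, beside 0.01 over all 13179 genes tested. Only Atf3 rose past the threshold (limma, adjusted p under 0.05 over all genes), which is 1 of 9 members beside 0.395% of all genes (0.167% called as higher). In 7 of 9 tested members both knockout libraries lay above both controls, as did 27.3% of all genes tested. At an unadjusted p under 0.05 there were 5 members and 1787 genes. With 2 libraries a group the exact two-sided permutation test of a single gene cannot go below p = 0.33.

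**Figure D1:**
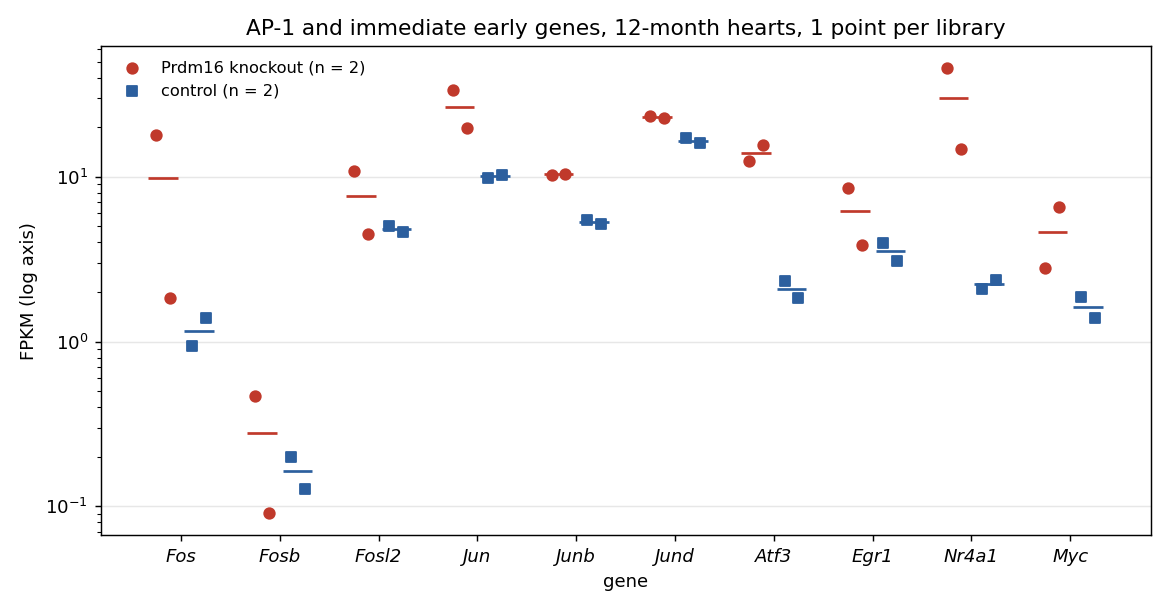
FPKM of each member in each 12-month library on a log axis, knockout to the left of control. Points are libraries and horizontal lines are arithmetic means. Both knockout points lie above both control points for Nr4a1, Atf3, Fos, Jun, Junb, Jund and Myc, and the groups overlap for Fosl2, Egr1 and Fosb.

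Among the FOS family, which cannot form AP-1 without a JUN partner, Fos was 17.9 and 1.83 FPKM in knockout hearts, against 0.937 and 1.39 FPKM in control hearts. Both knockout values were the higher ones, but the second was close to the controls. The log2 difference was 1.77 (SE 0.97, 95% interval -0.88 to 4.42; limma adjusted p = 0.490). Fos lies at chr12:85473890-85477273 on the plus strand. Fosl2, which encodes the FOS relative FRA-2, was 10.9 and 4.48 FPKM in knockout hearts and 5.03 and 4.61 FPKM in controls. The groups overlapped, since 1 knockout library was below both controls, and the difference of 0.47 did not pass (SE 0.40, adjusted p = 0.624). Fosb, a FOS relative best known from stimulated neurons, was near the bottom of the range, with 0.470 and 0.0911 FPKM in knockout and 0.199 and 0.127 FPKM in control hearts. It was under the mean of 1 FPKM required for the test, and its groups overlapped. Fosl1, which encodes FRA-1 and is the remaining FOS gene, was likewise untested, with 0.758 and 0.370 FPKM in knockout and 0.359 and 0.643 FPKM in control hearts.

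The JUN family, whose members pair with FOS proteins or with each other, was higher in both knockout libraries in all 3 genes, with differences that did not pass the adjusted threshold. Jun, the founding member, was 33.6 and 19.8 FPKM in knockout hearts, against 9.91 and 10.3 FPKM in controls. Its means were 26.7 ± 9.76 and 10.1 ± 0.266 FPKM (SD, n = 2 each), and on the log2 scale it differed by 1.27 (SE 0.28; limma adjusted p = 0.241, unadjusted p = 0.00907). The wide knockout spread came with a tight control pair. Junb, often a weaker activator than JUN, was 10.3 and 10.4 FPKM in knockout hearts and 5.45 and 5.21 FPKM in controls. Both pairs were tight, and the log2 difference was 0.84 (SE 0.11; limma adjusted p = 0.121). Jund, the JUN gene least dependent on stimulation, was 23.4 and 22.7 FPKM in knockout and 17.1 and 16.1 FPKM in control hearts. This was the smallest of the 3 estimates, with a log2 difference of 0.45 (SE 0.11; limma adjusted p = 0.253). With FPKM rescaled to the same total in each library (TPM) it was 0.14 (SE 0.12), where the median over all genes was -0.27.

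Transcripts on the opposite strand overlap the 3 JUN genes. The 3-month libraries kept strand, per the labels, but the sources used here do not say whether fragments were assigned by strand at either age. Junos shares 689 bases with Jun and was 0.750 and 1.71 FPKM in 12-month knockout and 0.616 and 0.736 FPKM in control hearts. Gm11175 shares 919 bases with Jund. It was 18.5 and 27.6 FPKM in knockout and 16.5 and 17.7 FPKM in control hearts at 12 months, and at most 1.26 FPKM in any 3-month library. Prdx2, a peroxiredoxin gene, shares 351 bases with Junb and was 527 and 779 FPKM in knockout and 502 and 498 FPKM in control hearts at 12 months, and 266 to 419 against 203 to 255 FPKM at 3 months. Reads of Junb are therefore uncertain at both ages, where Prdx2 exceeded it in every library, and those of Jund at 12 months, where Gm11175 was at a similar level.

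Atf3 was the only member called. It encodes a factor that is scarce in resting cells, is induced by many stresses and can repress as a homodimer or act with JUN proteins. It was 12.5 and 15.6 FPKM in knockout hearts, against 2.32 and 1.83 FPKM in control hearts. The means were 14.0 ± 2.16 and 2.08 ± 0.348 FPKM (SD, n = 2 each), 6.76-fold apart, and the groups lay far from each other relative to their spread. The log2 difference was 2.29 (SE 0.17, 95% interval 1.82 to 2.75; limma adjusted p = 0.0449). The gene lies at chr1:191170296-191218039 on the minus strand. The call sat close to the threshold: it was lost without control replicate 1 (adjusted p = 0.323), without control replicate 2 (0.428), with no filter on low values (0.136) and with the replicate number as a block (0.0589). The estimate stayed between 2.02 and 2.70 over the 11 alternatives.

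Of the zinc-finger and nuclear receptor members, Nr4a1 had the largest estimate and Egr1 one of the smallest. Nr4a1 encodes NUR77, an orphan nuclear receptor induced by calcium and cyclic AMP signals. It was 45.7 and 14.8 FPKM in knockout hearts, against 2.09 and 2.36 FPKM in controls. Both knockout libraries stood well above both controls, with means 13.6-fold apart, but they differed from each other 3.09-fold. The log2 difference was 3.07 (SE 0.56, 95% interval 1.55 to 4.60; limma adjusted p = 0.196, unadjusted p = 0.00474). Nr4a1 lies at chr15:101254269-101274795 on the plus strand. Egr1, a zinc-finger factor that responds to serum and MAP kinase signals, was 8.51 and 3.88 FPKM in knockout and 3.95 and 3.10 FPKM in control hearts. The groups overlapped, and the difference of 0.60 did not pass (SE 0.37; limma adjusted p = 0.527).

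Myc, a driver of growth and ribosome production, was 2.78 and 6.52 FPKM in knockout hearts, against 1.87 and 1.39 FPKM in controls. It was the only member among those not overlapping whose second knockout library was more than 2 times the first. The log2 difference was 1.03 (SE 0.38; limma adjusted p = 0.374).

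The rank of the members by level also differed between the groups. In 12-month knockout hearts Nr4a1, Jun and Jund came first, at means of 30.2, 26.7 and 23.0 FPKM with overlapping libraries. Atf3 (14.0 FPKM) and Junb (10.4 FPKM) followed, each apart from the gene ranked just above it. Atf3 still overlapped Nr4a1, whose lower library was at 14.8 FPKM. The Fos range of 1.83 to 17.9 FPKM spanned both Atf3 and Junb. Fos, Fosl2, Egr1 and Myc formed a chain of overlapping ranges. In control hearts Jund led at 16.6 FPKM, followed by Jun at 10.1 and Junb at 5.33 FPKM, all apart. Nr4a1 was sixth of the 10 there at 2.23 FPKM, and Atf3, Myc and Fos below it overlapped with their neighbours.

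The 2 knockout libraries of 12 months did not carry the same set of early genes. Knockout replicate 1 exceeded replicate 2 by 2.74 for Fos on log2(FPKM + 1), a gap that 0.357% of all genes reached. The same gap was 1.57 for Nr4a1 (0.948% of genes), 1.11 for Fosl2 (2.31%), 0.96 for Egr1 (3.46%) and 0.73 for Jun (6.47%). All 5 were higher in replicate 1. Junb, Jund and Atf3 differed little between the replicates, by -0.01, 0.04 and -0.29, and Myc went the other way by -0.99. With the gap set at 2-fold on FPKM + 1, replicate 1 was the higher in 3 of 9 members and replicate 2 in 0, beside 3.15% and 2.70% of all genes. The 2 controls differed by 2-fold in 0 members, beside 0.417% and 0.660% of genes in the 2 directions. Knockout replicate 1 was the higher of the 2 for 6 of 9 members, for 23 of 38 other immediate early genes and for 10 of 12 heat shock genes. Among the other lists read below, it was higher for 23 of 27 MAP kinase, SRF and CREB genes and 8 of 10 MYC network genes. It was also higher for 8 of 12 feedback genes and 6 of 8 AP-1 partners, but for only 3 of 15 reported AP-1 targets. Over all genes tested, replicate 1 was the higher in 46.5% to 52.8%, the shares that reached the gaps of Jund and Junb. Among these lists, a higher replicate 1 was thus not particular to early or heat shock genes.

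**Figure D2:**
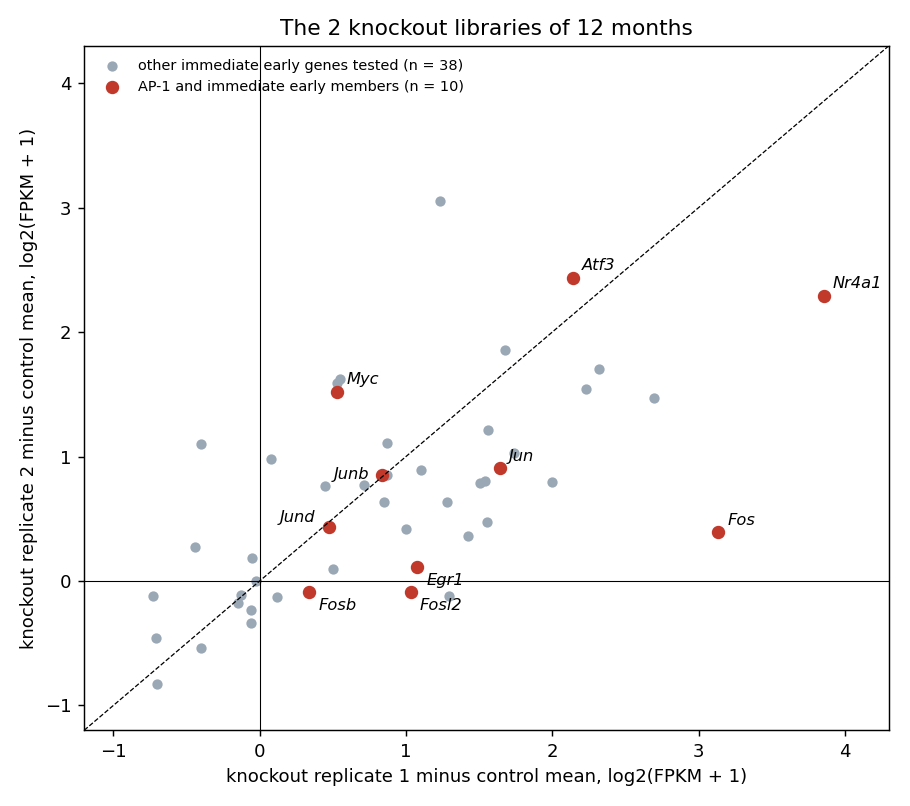
Difference of each 12-month knockout library from the control mean on log2(FPKM + 1), replicate 1 on the x axis and replicate 2 on the y axis. Red points are the members, grey points the 38 other tested immediate early genes, and the dashed line marks equal values. Fos and Nr4a1 lie farthest below the line, Atf3 lies near it and Myc lies above it.

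At 3 months no member passed the test. Of 8 members tested, 7 had a higher knockout mean, with a median log2 difference of 0.27, beside 0.09 over all 12200 genes. None was called and none had an unadjusted p under 0.05, while limma called 0.746% of all genes (0.623% as higher) and 2224 genes had an unadjusted p under 0.05. All knockout libraries lay above all controls in 3 of 8 members (Jund, Egr1 and Nr4a1), as in 20.1% of genes. The smallest p that an exact permutation test can give at 3 against 3 is 0.1, which these 3 members reached.

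**Figure D3:**
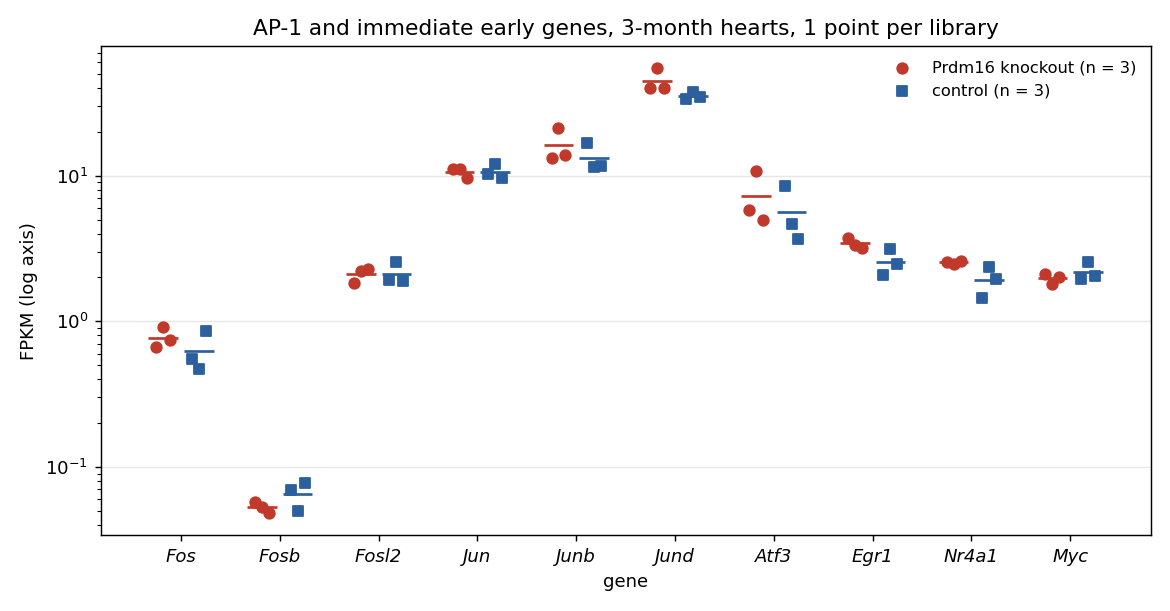
FPKM of each member in each 3-month library on a log axis, knockout to the left of control. Points are libraries and lines are arithmetic means. The groups overlap except for Jund, Egr1 and Nr4a1, where the 3 knockout points lie just above the 3 control points.

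Jund was the most abundant JUN gene in both groups at 3 months, at 40.2, 54.8 and 40.0 FPKM in knockout and 33.8, 37.5 and 34.5 FPKM in control hearts. The groups did not overlap, with a log2 difference of 0.33 (SE 0.15; limma adjusted p = 0.280). Junb was 13.2, 21.4 and 13.8 FPKM in knockout and 16.8, 11.4 and 11.7 FPKM in control hearts. Its groups overlapped, with a difference of 0.25 (SE 0.21; limma adjusted p = 0.560). Jun was 11.1, 11.1 and 9.66 FPKM in knockout and 10.2, 12.1 and 9.61 FPKM in control hearts. Here the means coincided at 10.6 ± 0.821 and 10.6 ± 1.30 FPKM (SD, n = 3 each), and the log2 difference was 0.00 (SE 0.13).

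Atf3 at 3 months varied widely within each group, with 5.81, 10.8 and 4.99 FPKM in knockout and 8.47, 4.66 and 3.67 FPKM in control hearts. The ranges overlapped, with a log2 difference of 0.32 (SE 0.31; limma adjusted p = 0.616). Nr4a1 was 2.54, 2.48 and 2.61 FPKM in knockout and 1.44, 2.36 and 1.95 FPKM in control hearts. The tight knockout values lay just above the controls, with a difference of 0.29 (SE 0.14; limma adjusted p = 0.316). Egr1 was 3.73, 3.36 and 3.18 FPKM in knockout and 2.09, 3.15 and 2.47 FPKM in control hearts. The nearest libraries of the 2 groups were almost equal, and the difference was 0.32 (SE 0.14; limma adjusted p = 0.275).

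Myc at this age was 2.1, 1.81 and 2.00 FPKM in knockout and 1.94, 2.56 and 2.04 FPKM in control hearts. It was the 1 tested member with a lower knockout mean, by -0.10 (SE 0.13; limma adjusted p = 0.728). Fosl2 was 1.84, 2.23 and 2.27 FPKM in knockout and 1.92, 2.54 and 1.88 FPKM in control hearts, with equal means of 2.11 FPKM. Fos was too low to be tested, at 0.662, 0.910 and 0.742 FPKM in knockout and 0.550, 0.468 and 0.864 FPKM in control hearts. Fosb did not exceed 0.0776 FPKM in any 3-month library. Jund, Junb, Jun, Atf3 and Egr1 held the first 5 ranks by level in both groups, and Junb overlapped Jun in controls but not in knockout hearts.

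The difference between knockout and control was then compared between the ages. The contrast was the 12-month difference minus the 3-month difference on log2(FPKM + 1), over 11580 genes tested at both ages. The ages come from separately made libraries and tables, so that age and library preparation cannot be told apart. Nr4a1 was the 1 of 8 members called, beside 1.38% of all genes (0.656% as larger at 12 months). Its difference was 2.78 larger at 12 months (SE 0.49, 95% interval 1.70 to 3.86; limma adjusted p = 0.0221). The median of the 8 members was 0.86, beside -0.08 over all genes.

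Jun and Atf3 had the next largest contrasts that the spread did not carry past the threshold. Jun was 1.27 larger at 12 months (SE 0.27; limma adjusted p = 0.0545) and Atf3 was 1.97 larger (SE 0.46; adjusted p = 0.0702). A rise of Atf3 that passed at 12 months and not at 3 months is thus not shown to differ between the ages. Myc gave 1.12 (SE 0.34; adjusted p = 0.144) and Junb 0.60 (SE 0.30; adjusted p = 0.372). Fosl2, Egr1 and Jund had contrasts of 0.47, 0.28 and 0.12, with adjusted p of 0.592, 0.748 and 0.823. The Nr4a1 call held in 7 of 15 alternatives, with estimates of 2.00 to 3.56 and adjusted p of 6.05e-05 to 0.123. It was lost with no filter (0.0619) and when any knockout library of 3 months was left out (0.0606, 0.05 and 0.0545). It was also lost on leaving out either 12-month control (0.123 and 0.112) and on leaving out 3-month control replicate 2 (0.0735) or replicate 3 (0.0687).

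**Figure D4:**
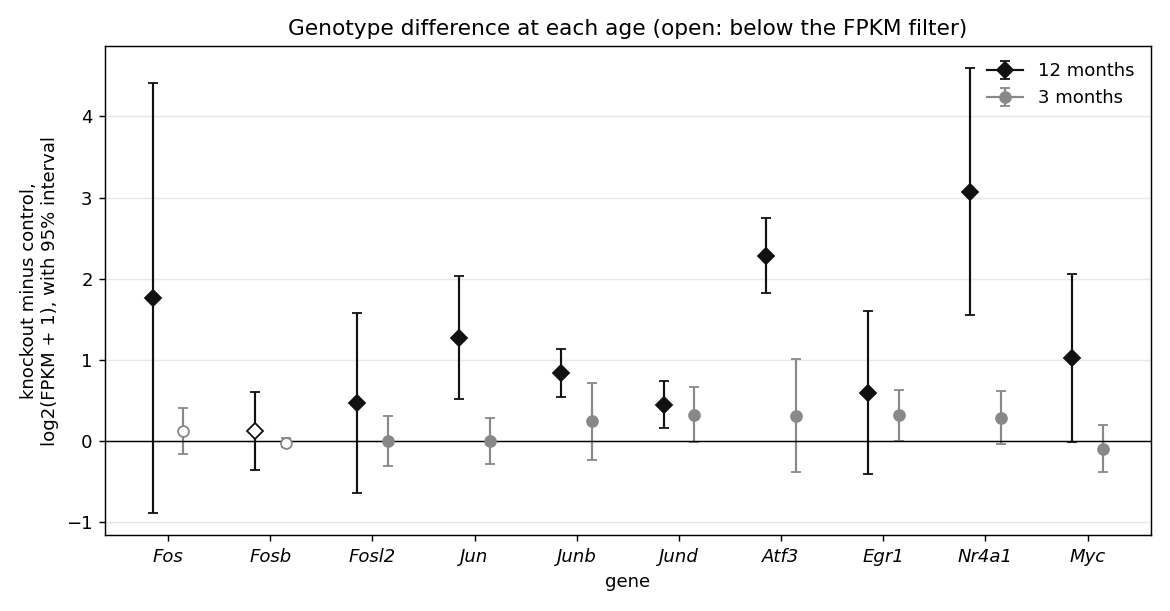
Log2 difference of knockout minus control on log2(FPKM + 1) for each member, 12 months to the left of 3 months. Bars are 95% intervals from limma, and open markers are members below the filter on low values. At 12 months the intervals of Nr4a1, Atf3, Jun, Junb and Jund exclude 0, and at 3 months those of all members include it.

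Other genes around AP-1 were read as lists, by counts and medians. Of the other AP-1 and basic leucine zipper partners, 0 of 8 tested genes passed at 12 months. All 8 had a higher knockout mean, with a median log2 difference of 0.30. In 5 both knockout libraries lay above both controls, beside 27.3% of all genes tested. The lowest p-values belonged to Jdp2, a repressor that pairs with JUN, and to the small MAF genes Mafk and Maff, which lack an activation domain. Jdp2 was 5.97 and 5.16 FPKM in knockout and 2.97 and 3.33 FPKM in control hearts (log2 difference 0.66; limma adjusted p = 0.234). Mafk was 16.6 and 27.2 FPKM in knockout and 9.86 and 9.06 FPKM in control hearts, and Maff was 3.68 and 6.31 against 2.26 and 1.91 FPKM. Batf, a leucine zipper partner of JUN best known from lymphocytes, was under the filter at 12 months. At 3 months it was 3.12, 5.36 and 2.77 FPKM in knockout and 3.44, 1.62 and 1.15 FPKM in control hearts, overlapping (limma adjusted p = 0.267). At that age 0 of 11 partners passed, 7 with a higher knockout mean and a median of 0.05. The lowest p-values there were those of Mafg (-0.48, adjusted p = 0.191) and Atf7 (0.43, adjusted p = 0.224).

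Other immediate early genes also stood mostly higher in 12-month knockout hearts, with 1 of 38 called, Cebpd. Of the 38, 27 had a higher knockout mean, with a median log2 difference of 0.74. In 24 both knockout libraries lay above both controls, beside 27.3% of all genes tested, and in 8 both lay below. Cebpd, which encodes the leucine zipper factor C/EBP delta of the acute phase response, was 14.5 and 16.5 FPKM in knockout hearts, against 3.50 and 4.20 FPKM in controls. It rose by 1.77 (SE 0.14; limma adjusted p = 0.0498), a call that held in 4 of 11 alternatives (adjusted p = 0.0163 to 0.623). It was lost without either control replicate, with no filter, without the trend, under both other scalings and with the replicate block. At 3 months Cebpd was 13.5, 24.4 and 14.1 FPKM in knockout and 9.65, 7.77 and 8.98 FPKM in control hearts. Those groups did not overlap, but the difference of 0.86 did not pass (adjusted p = 0.116). At 3 months 0 of 39 were called, with 22 higher and a median of 0.06. Gadd45b and Gadd45g, which are growth-arrest and stress genes, had the lowest p-values there beside Cebpd. Gadd45b was 14.5, 20.0 and 15 FPKM in knockout and 11.4, 9.20 and 7.30 FPKM in control hearts (log2 difference 0.77; adjusted p = 0.101).

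Of the same list, 6 genes had a knockout-control difference that was called as larger at 12 months than at 3 months, as had 0.656% of all genes tested. Sgk1, a kinase gene induced by corticosteroids and serum, was 50.2 and 39.2 FPKM in knockout and 15.6 and 17.1 FPKM in control hearts at 12 months. Its groups overlapped at 3 months, at 8.74 to 9.96 FPKM in knockout and 9.70 to 10.1 FPKM in control hearts, and the contrast was 1.47 (limma adjusted p = 0.00336). Klf4, a Krüppel-like factor gene, was 18 and 18.8 FPKM in knockout and 11 and 10.2 FPKM in control hearts at 12 months. At 3 months it was 5.89 to 7.03 FPKM in knockout and 8.03 to 8.48 FPKM in control hearts, so the 2 differences had opposite signs (contrast 1.04, adjusted p = 0.0139). The others were the small GTPase gene Rhob (0.97, adjusted p = 0.0239), the clock gene Per1 (2.23, 0.0259), the antiproliferative gene Btg2 (1.42, 0.0414) and Cebpb, which encodes C/EBP beta (1.75, 0.0427). Per1 was 26.9 and 10.9 FPKM in knockout and 3.16 and 3.44 FPKM in control hearts at 12 months. The Sgk1 call held in 15 of 16 alternatives and was lost only under TPM (limma adjusted p = 0.067). Klf4 held in 13 of 16, and was lost under TPM (adjusted p = 0.196) and without either 12-month control. Rhob held in 9 of 16, Per1 in 7 of 15, Cebpb in 7 of 16 and Btg2 in 6 of 16. The calls of Rhob, Per1, Cebpb and Btg2 were sensitive to single libraries of either age, and all of these but Per1 were also lost under TPM.

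The 2 relatives of Nr4a1 were low. Nr4a3 was 5 and 2.73 FPKM in knockout and 0.317 and 0.244 FPKM in control hearts at 12 months (log2 difference 1.89; limma adjusted p = 0.163). Nr4a2 stayed under the filter, at 1.22 and 0.775 FPKM in knockout and 0.414 and 0.582 FPKM in control hearts. Both showed the knockout libraries above the controls, as Nr4a1 did. Dusp1, a phosphatase gene that is a member of the early response and switches MAP kinases off, was 70.0 and 25.6 FPKM in knockout and 28.4 and 27.6 FPKM in control hearts. Like Fosl2, it was high in knockout replicate 1 alone.

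**Figure D5:**
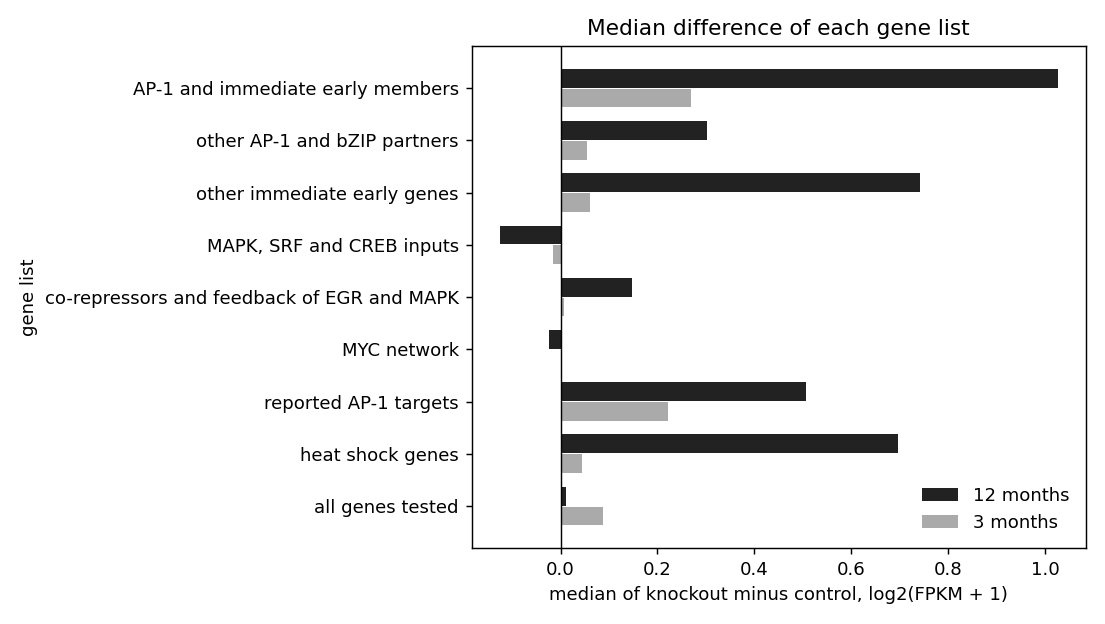
Median log2 difference of knockout minus control on log2(FPKM + 1) for the members, 7 lists of early, signalling, target and heat shock genes and all genes tested, 12 months above 3 months. Marker and sex-linked lists are not drawn. At 12 months the medians were 1.03 for the members, 0.74 for the other immediate early genes and 0.70 for the heat shock genes, and at 3 months these 3 lie at or below 0.27.

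The genes upstream of these factors did not share that direction. Of 27 MAP kinase, SRF and CREB genes tested at 12 months none was called and 18 had a lower knockout mean, with a median of -0.13. In 11 both knockout libraries lay below both controls, and in 1 both lay above. Over all 13179 genes tested, 6790 had a higher knockout mean and the median was 0.01. Mapk8, which encodes the JUN kinase JNK1, was 12.5 and 12.3 FPKM in knockout and 18.1 and 21.9 FPKM in control hearts (log2 difference -0.64; limma adjusted p = 0.239). The ternary complex factor genes Elk4 and Elk3 had differences of -0.49 and -0.39. At 3 months 0 of 27 were called and the median was -0.02, with the lowest p-values for Map2k6 (0.31), Map2k3 (0.24) and Elk4 (0.27). Of the co-repressors and feedback inhibitors, 0 of 12 were called at 12 months, with 9 higher and a median of 0.15, and 0 of 11 at 3 months, with a median of 0.01. Spry1, a feedback inhibitor of receptor kinase signals, was 13.9 and 14.3 FPKM in knockout and 10.1 and 10.3 FPKM in control hearts at 12 months. Dusp3 and Spry2 followed at that age with 0.30 and -0.48, and Dusp7, Dusp16 and Nab2 led at 3 months with 0.43, -0.27 and 0.26.

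In the MYC network 0 of 10 genes were called at either age, with 5 higher and 5 lower at both and medians of -0.02 at 12 months and 0.00 at 3 months. Mycn, a relative of Myc used in the embryonic heart, was 0.736 and 0.259 FPKM in 12-month knockout and 1.96 and 1.78 FPKM in control hearts (log2 difference -0.96; limma adjusted p = 0.257). Max, the partner of MYC, was 21.1 and 15.7 FPKM in knockout and 12.7 and 11.7 FPKM in control hearts. Mxi1 differed by 0.48 at 12 months, and Mlx, Mycn and Max had the lowest p-values at 3 months with 0.34, -0.27 and 0.30.

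Genes reported elsewhere as AP-1 targets had 0 of 15 called at 12 months, with 10 higher and a median of 0.51. In 9 both knockout libraries lay above both controls, beside 27.3% of all genes tested, and in 3 both lay below. Mt1, a metallothionein gene, was 218 and 450 FPKM in knockout against 101 and 101 FPKM in control hearts, and Fn1, the fibronectin gene, was lower by -0.81 (adjusted p = 0.130). At 3 months 0 of 16 were called, with 14 higher and a median of 0.22, led by Cd44 (0.44), Vim (0.38) and Spp1 (0.47).

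Heat shock genes, which respond to heat, hypoxia and tissue handling, were listed beside the early genes. None of 12 was called at 12 months, but 12 of 12 had a higher knockout mean, with a median of 0.70. In 9 both knockout libraries lay above both controls, beside 27.3% of all genes tested. The summed level of the 12 was 1930 and 1470 FPKM in knockout and 1250 and 1270 FPKM in control hearts. Hsp90aa1 was 190 and 175 FPKM in knockout and 103 and 110 FPKM in control hearts, and Bag3, a co-chaperone gene, was 119 and 114 against 72.2 and 70.7 FPKM. Dnajb4 was called as a larger difference at 12 months, by 1.09 (limma adjusted p = 0.0198; held in 9 of 16 alternatives). Hspa1a was 5.40 and 2.08 FPKM in knockout and 0.339 and 0.284 FPKM in control hearts, so knockout replicate 1 was the higher one here as for Fos. At 3 months 0 of 10 were called and the median was 0.04, led by Hspe1 (0.46), Hspa8 (-0.48) and Hspb1 (0.32). The part of the heat shock genes in the members' values was not tested. The part of the cell type markers given above, which also separated the groups, was not tested either.

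Across the 10 libraries, the genes with profiles nearest to the members were found by the mean absolute difference of log2(FPKM + 1), centred on the mean of each age, among 10467 genes. For Fos these were Zbtb16 (0.184), Zfp93 (0.229) and Ciart (0.240), against 0.522 for the size of the profile of Fos itself. Zbtb16 encodes a zinc-finger repressor and Ciart a circadian repressor. Ciart was 10.7 and 1.85 FPKM in knockout and 0.436 and 0.703 FPKM in control hearts at 12 months, and Zbtb16 was 21.2 and 4.25 against 2.05 and 2.15 FPKM. Each was highest in knockout replicate 1, as Fos was. For Egr1 the nearest genes were Tanc1 (0.0998), Ephb3 (0.105) and Adora1 (0.114), against 0.265.

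For Atf3 the nearest profiles were those of the interferon-inducible gene Ifi205 (0.202), Cebpb (0.218) and Wisp2 (0.220), against 0.693 for Atf3. Ifi205 was 7.32 and 13.2 FPKM in knockout and 0.336 and 0.577 FPKM in control hearts at 12 months. Cebpb was 22 and 14.0 FPKM in knockout and 3.40 and 3.82 FPKM in control hearts, so it was highest in the other replicate than Atf3. For Myc they were Pnpla2 (0.0733), which encodes adipose triglyceride lipase, Shmt1 (0.0741), a one-carbon enzyme gene, and Cyp4b1 (0.0814), against 0.251. Pnpla2 was 241 and 515 FPKM in knockout and 185 and 176 FPKM in control hearts, with the same order of knockout libraries as Myc. These likenesses are descriptions over the same 10 libraries, so the compared genes share their groups and any differences in depth.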

How the data were processed

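RNA-seq of mouse hearts (10 libraries) was deposited as FPKM made by the authors, 1 table per age; the 12-month table is named as lacking outliers, with no detail. Per the submitters' processing notes, which give no roles, STAR 2.5.1b, TopHat2 2.1.0, Cufflinks 2.1.1 and FastQC were used with mm10 or GRCm38. Libraries of 3 months kept strand and were poly(A)-selected, per the labels. Repeated rows (69 at 3 months) were summed. Symbols were those deposited with the FPKM, and coordinates came from GENCODE M21. Summed FPKM was 890181 to 1171104 at 12 months and 516272 to 718787 at 3 months. At 12 months 89.6% to 91.3% of low values lay within 0.05 of whole reads (10% by chance at 1 setting, more for the best of many), at 26.7 and 21.9 M reads in knockout and 30.1 and 31.5 M in control hearts. At 3 months the share was 17.8% to 32.8%, so depth is unknown.

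Genes averaging 1 FPKM or more were tested within an age by limma 3.58.1 (R 4.3.3) on log2(FPKM + 1), with trend, Benjamini-Hochberg adjustment over all genes and a threshold of 0.05. This scale understates changes of low genes. The interaction over all 10 libraries compared ages. Pseudocount, filter, scaling, trend, replicate block and single libraries were varied. The code was tested on simulated data.

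Named genes were the members, the called or up to 3 lowest-p genes of each list, Fosl1, Batf and the nearest profiles of Fos, Egr1, Atf3 and Myc. A gene that the rule takes is not reported here. The other genes called only between ages, Nr4a2, Nr4a3, Dusp1 and Hspa1a were chosen after their values were seen. Members and lists were chosen with earlier results of these data known. Promoters came from RefSeq (GRCm38.p6), and those of 8 members were scanned. Chromosome 18, which holds Egr1, was left out of the scan, and Myc had no entry.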

Additional observations from a re-analysis of the deposited data

Results flagged for a closer look

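The knockout-control difference of Nr4a1 was larger at 12 months than at 3 months by 2.78 on log2(FPKM + 1) (limma interaction contrast, adjusted p = 0.0221), which is a difference between groups under the same contrast. Both 12-month knockout libraries stood above both 12-month controls, and all 3 knockout libraries of 3 months stood above the 3 controls by a smaller margin. Age, library preparation, separately made tables and, at 12 months, sex-linked expression cannot be told apart from it.

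Among 63 other genes named, the same contrast was called, and larger at 12 months, for 9, beside 0.656% of all genes tested. Several of the 9 were named because this contrast called them, so the count follows from that choice. Ddx3y is Y-linked, and its value follows the split of sex-linked genes between the 12-month groups given above. The values on log2(FPKM + 1) were 4.46 for Ddx3y (limma adjusted p = 8.67e-07), 2.43 for Ifi205 (adjusted p = 0.0348), 2.23 for Per1, 1.75 for Cebpb, 1.47 for Sgk1, 1.42 for Btg2, 1.09 for Dnajb4, 1.04 for Klf4 and 0.97 for Rhob. For Klf4 every knockout library lay above every control at 12 months and below every control at 3 months.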

How the results depend on the processing

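At 12 months 52 genes were called, but 17 with no filter and 0 to 4409 with single libraries left out: 0 without either control, 4409 without knockout replicate 1 and 654 without knockout replicate 2, where the lone library is assumed to vary like the other group with 1 sample fewer. Of the members, 1 was called, but 0 with no filter, and 0 to 6 with single libraries left out. Without knockout replicate 1 the 6 were Atf3, Jun (0.91), Junb (0.85), Jund (0.43), Myc (1.52) and Nr4a1 (2.29), and without replicate 2 they were Atf3, Fos (3.14), Fosl2 (1.03), Jun (1.64), Junb (0.84) and Nr4a1 (3.85). At 3 months 91 genes were called, but 10 with no filter, 59 with median-of-ratios scaling (42 higher and 17 lower, against 76 and 15), and 22 to 81 with single libraries left out; no alternative called a member. Between ages 160 genes were called, and 40 to 787 with single libraries left out. With median-of-ratios scaling 132 of 213 were higher at 12 months, and with TPM 33 of 122, against 76 of 160. Of the members, 1 was called, but 0 with no filter, 2 with median of ratios and 0 to 4 with single libraries left out. Signs turned for Fosl2 at 3 months (median of ratios -0.067, TPM -0.080, single libraries out -0.049 to 0.10), Jun at 3 months (-0.10 under both scalings, single libraries out -0.063 to 0.089) and Fosl2 at 12 months (-0.085 to 1.03). Between ages they turned for Jund under TPM (-0.086), Fosl2 (-0.089 to 1.02) and Egr1 (-0.20 to 0.76). Under TPM the 12-month estimates of all tested members were lower, among them Junb (0.56), Egr1 (0.34), Fosl2 (0.20) and Jund (0.14). The median over all genes was also lower there, at -0.27. The cause of these changes was not tested.

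Replicate numbers did not pair the samples: deviations of same-numbered libraries correlated at -0.00633 at 12 months and at -0.121, -0.458 and -0.143 at 3 months. With the replicate block, 0 members and 40 genes were called at 12 months, and 0 members and 29 genes at 3 months.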
